A study of Homo sapiens with 9 samples.

Results

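The cluster of miR-221 and miR-222 was followed through a miRNA trapping experiment in the ovarian cancer line ES-2. Its 4 mature products, hsa-miR-221-3p, hsa-miR-221-5p, hsa-miR-222-3p and hsa-miR-222-5p, were chosen by name from the 2652 miRNA names of the count table. Each occupies a single row of that table, on chromosome X, and all 4 were among the 408 miRNAs that passed a filter on low counts. All cells were wild type and untreated. In miTRAP, a transcript tagged with MS2 loops is tethered to amylose resin by a fusion of maltose-binding protein with an MS2-binding protein, extract is added, and what the bait retains is eluted with maltose for sequencing. Libraries were made from the extract (input, n = 3), from the eluate of a bait with the loops alone (MS2 control, n = 3) and from that of a bait with the 3'UTR of PD-L1 (PD-L1 3'UTR, n = 3). The baits were in vitro transcripts immobilized in unequal amounts, so bait sequence and bait amount cannot be told apart between the trapped groups. The study describes its experiments in general as biological replicates, but the sample labels tie no library to a culture or lysate, so the p-values measure the spread between these libraries, part of which may be technical.

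miR-221 and miR-222 are processed from neighbouring hairpins of a shared primary transcript. Each hairpin is cut to a duplex, and Argonaute usually keeps the guide strand, which pairs with target mRNAs through its seed near the 5′ end, while the passenger strand is mostly lost. The 3p arms are the usual guides of both hairpins. They are known in many solid tumours as growth-promoting miRNAs that repress the cell cycle inhibitors CDKN1B (p27) and CDKN1C (p57).

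Mature sequences of 3 of the 4 members were found in RefSeq (GRCh38.p14). They are shown because the 3p arms share a seed and differ beyond it, which is the basis of the comparisons that follow. Capitals mark the seed, bases 2 to 8 from the 5′ end.
hsa-miR-221-3p: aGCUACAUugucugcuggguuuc
hsa-miR-222-3p: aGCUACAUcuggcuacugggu
hsa-miR-222-5p: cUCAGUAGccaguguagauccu
The 3p arms were identical over their first 8 bases. Of the 13 later positions that could be compared without gaps, 3 were identical. A further run of 6 bases was shared with an offset, at bases 15 to 20 of miR-221-3p and bases 16 to 21 of miR-222-3p. No other mature miRNA of the RefSeq table carried the seed of the 3p arms, and none but miR-222-5p carried its seed. That table held sequences for 371 of the 408 miRNAs tested here, so the seeds of the rest were not compared.

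Both hairpins lie on the reverse strand of chromosome X, at chrX:45746157-45746266 for MIR221 and chrX:45747015-45747124 for MIR222 (GRCh38.p14), with 748 bases between them. The mature sequences lie at chrX:45746180-45746202 for miR-221-3p, chrX:45747036-45747056 for miR-222-3p and chrX:45747073-45747094 for miR-222-5p. RefSeq places both hairpins within the long non-coding host gene MIR222HG, chrX:45745214-45770267. In the GENCODE annotation of GRCh37, both fell in an intron of a MIR222HG transcript, and 24 of the 110 bases of the MIR221 hairpin overlapped an exon of another transcript of that gene.

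The libraries held between 3794799 and 5983577 miRNA counts in the input, between 1156261 and 2236535 in the MS2 control and, for the PD-L1 3'UTR, between 672824 and 1237652. The lowest count of any member in any library was 140, for miR-222-5p in an MS2 control library, so depth did not limit detection of the members. Of 20 marker miRNAs of epithelial, blood, muscle, liver, neuronal and endothelial cells, 10 had at most 3 counts in every input library. These included miR-141-3p, miR-429 and miR-205-5p of the 6 epithelial markers, while miR-200c-3p reached 186 counts. The highest of the 20 in the input were miR-9-5p of the neuronal markers, with up to 1111 counts, and 2 blood markers. Those were miR-142-5p and miR-142-3p, with up to 572 and 432. The summed level of the 20 markers was 480 to 541 CPM (counts scaled to a common library size by trimmed mean of M values, TMM) in the input, 631 to 725 in the MS2 control and, with the PD-L1 3'UTR, 1170 to 4914. PD-L1 3'UTR replicate 1 gave the highest of these sums, with 1834 CPM of muscle markers against 102 and 28.3 in replicates 2 and 3. Values without it are given beside the results for the PD-L1 3'UTR group, and the part of other cells' RNA in them was not tested.

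The cluster was abundant in the lysate, mainly through its 3p arms. Together the 4 arms took 6.37% ± 0.316 (SD, n = 3) of all miRNA counts in the input, 3.25% ± 0.120 in the MS2 control and 5.05% ± 0.747 in the PD-L1 3'UTR group. The CPM that follow are not divided by length, since a read spans a whole mature miRNA, and differences in ligation and amplification between sequences limit comparisons of level between arms. Lower or higher is relative to the other miRNAs of a library, and the counts do not measure the amount of RNA retained.

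miR-221-3p, the guide of the MIR221 hairpin, had 48217, 38642 and 39272 CPM in input replicates 1, 2 and 3, then 14240, 11486 and 14040 in the MS2 control and 12038, 13280 and 12543 with the PD-L1 3'UTR. Every trapped library lay below every input library, and the trapped groups overlapped. By group mean it ranked 6 of 408 miRNAs in the input, 12 in the MS2 control and 15 with the PD-L1 3'UTR.

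miR-222-3p, the guide of the MIR222 hairpin, had 31771, 26028 and 28284 CPM in the input, 11547, 14495 and 13205 in the MS2 control and 35185, 33319 and 22762 with the PD-L1 3'UTR. Here the MS2 control alone was low, and the PD-L1 3'UTR libraries overlapped the input. Its rank went from 9 in the input to 13 in the MS2 control and 8 with the PD-L1 3'UTR.

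miR-221-5p, the partner strand of miR-221-3p, had 9347, 13627 and 14808 CPM in the input, 975, 1505 and 1486 in the MS2 control and 1325, 1823 and 1878 with the PD-L1 3'UTR. It was the third most abundant member of the cluster in the input, at rank 14, and stood at ranks 48 and 54 in the trapped groups.

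miR-222-5p, the partner strand of miR-222-3p, had 408, 787 and 1147 CPM in the input, 90.5, 165 and 155 in the MS2 control and 184, 250 and 215 with the PD-L1 3'UTR. It was the scarcest member in each of the 9 libraries, and its input libraries spread widest relative to their mean, 781 CPM ± 370 (SD, n = 3).

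**Figure D1:**
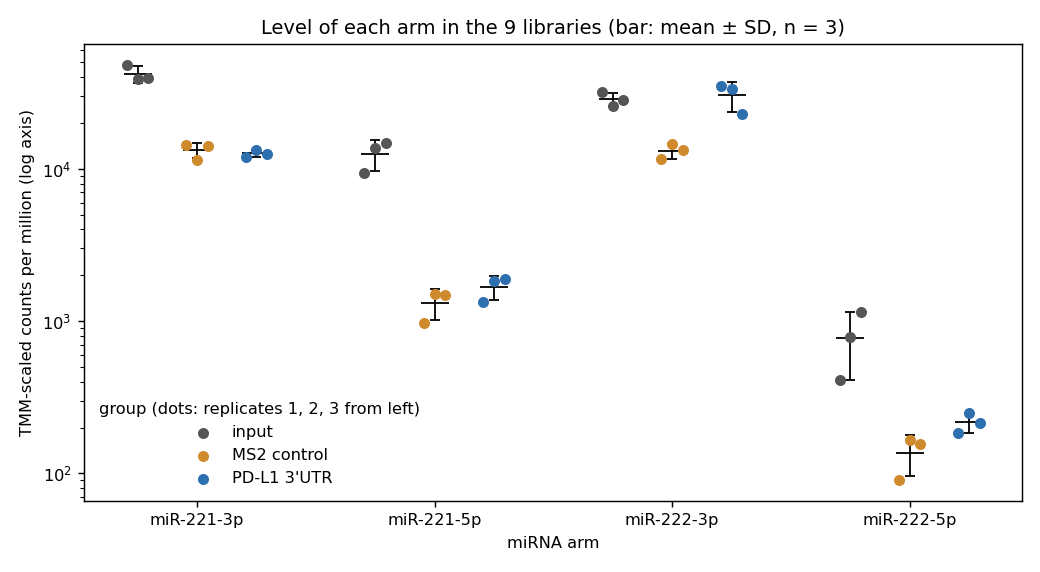
Level of each arm in TMM-scaled CPM on a log axis, by group, with dots for the libraries and a bar for the mean ± SD (n = 3). miR-221-3p, miR-221-5p and miR-222-5p lay lower in both trapped groups than in the input, whereas the PD-L1 3'UTR libraries of miR-222-3p, from 22762 to 35185 CPM, lay above its MS2 control libraries and over the range of its input libraries.

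Setting the PD-L1 3'UTR against the MS2 control asks which arms made up more of the eluate than with loops and resin alone. miR-222-3p was 2.33-fold higher, from 13083 CPM ± 1478 (SD, n = 3) to 30422 CPM ± 6699, and its log2 fold change was 1.22 (SE 0.17, adjusted p of 0.000119 in edgeR's quasi-likelihood test with Benjamini-Hochberg adjustment over the 408 miRNAs). All 3 PD-L1 3'UTR libraries were above all MS2 control libraries. Without PD-L1 3'UTR replicate 1, its log2 fold change was 1.14 and still passed the threshold. The other arms, none of which passed with or without that library, then stood at -0.0042 for miR-221-3p, 0.52 for miR-221-5p and 0.79 for miR-222-5p. It was the only arm called of 4, where 60% of the 408 miRNAs were called, 31.4% as higher and 28.7% as lower. In this order of fold changes, 26.5% of the tested miRNAs lay above miR-222-3p, so many other miRNAs rose by more.

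miR-221-3p, with the same seed, stood at -0.07 on that scale (SE 0.13, adjusted p of 0.655). The 95% confidence interval of its fold ran from 0.781 to 1.16 and did not reach that of miR-222-3p, from 1.79 to 3.03. Neither partner strand passed the threshold. miR-221-5p stood at 0.34 ± 0.22 (adjusted p of 0.213), with an interval of the fold from 0.897 to 1.79. miR-222-5p had 0.65 ± 0.35 (adjusted p of 0.134), with an interval from 0.916 to 2.70. Its PD-L1 3'UTR libraries lay above its MS2 control libraries without overlap, as in either direction did those of 65.7% of the miRNAs tested. Both partner strands passed the threshold in the fit with the replicate number as a block, and miR-222-5p also when no filter on low counts was used.

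Against the input, the PD-L1 3'UTR group held less of 3 of the 4 arms. Of the 408 miRNAs, 66.4% were called in this comparison, 34.1% as higher and 32.4% as lower. The passenger miR-221-5p was 7.52-fold lower, having dropped by 2.91 in log2 units (SE 0.24, adjusted p of 2.52e-06). miR-222-5p fell by 1.85 (SE 0.36, adjusted p of 0.00103) and miR-221-3p by 1.74 (SE 0.13, adjusted p of 1.33e-06). Without PD-L1 3'UTR replicate 1 the log2 fold changes were -2.82, -1.81 and -1.75 in the same order, and all passed the threshold. All PD-L1 3'UTR libraries of these arms lay below all input libraries, and 74.8% of the 408 miRNAs were likewise without overlap in either direction.

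miR-222-3p did not differ from the input beyond the spread of the libraries, at 0.08 (SE 0.17, adjusted p of 0.671) and an interval of the fold from 0.817 to 1.38. It stood at -0.080 without PD-L1 3'UTR replicate 1. The call hinged on how libraries were scaled. Using library totals instead of TMM raised the median of all miRNAs by 0.57 in log2 units, 192 miRNAs were called higher and 89 lower against 139 and 132 with TMM, and miR-222-3p passed the threshold at 0.66. Relative to the median of all miRNAs it stood at 0.05 under either scaling. Therefore, of the 4 arms 0 were higher with the PD-L1 3'UTR than in both other groups with TMM and 1, miR-222-3p, with library totals. Of all 408 miRNAs, 18.9% met that rule with TMM, which is 77, and 93 met it with library totals.

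The MS2 control against the input compares the eluate of loops and resin alone with the extract, and all 4 arms were lower. Of the 408 miRNAs, 69.9% were called, 32.8% as higher and 37% as lower. In log2 units, miR-221-5p fell by 3.25 (SE 0.24, adjusted p of 1.59e-06) and miR-222-5p by 2.51 (SE 0.36, adjusted p of 0.000142). The guides fell less, miR-221-3p by 1.67 (SE 0.13, adjusted p of 2.09e-06) and miR-222-3p by 1.13 (SE 0.17, adjusted p of 0.000189). For each arm all 3 MS2 control libraries lay below all input libraries, and 75.5% of the 408 miRNAs were without overlap in either direction. Both comparisons with the input share its libraries, so the 3 arms that were lower in both, where 19.1% of all miRNAs were, are not separate observations. With library totals the median of all miRNAs rose by 0.63, and all 4 arms were still called lower, with miR-222-3p at -0.51, where 104 of the 408 miRNAs were called lower and 199 higher. The median log2 fold change of the 4 arms was -2.09 in this comparison, -1.80 for the PD-L1 3'UTR against the input and 0.50 for the PD-L1 3'UTR against the MS2 control. The medians of all 408 miRNAs were 0.02, 0.04 and 0.02.

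**Figure D2:**
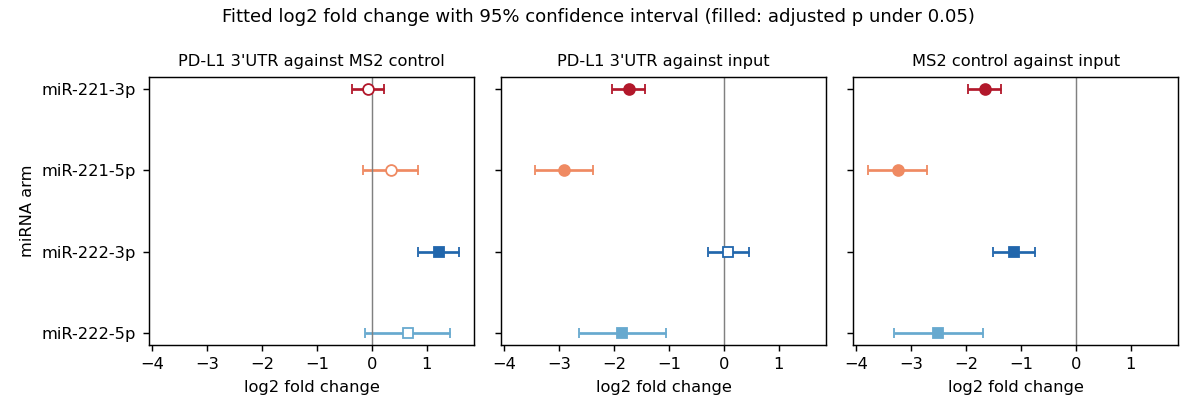
Fitted log2 fold change of each arm with its 95% confidence interval in the 3 comparisons, filled where the adjusted p passed the threshold of 0.05. Against the MS2 control miR-222-3p alone is filled, at 1.22, and against the input it alone is open in the PD-L1 3'UTR group, at 0.08.

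To ask how guide and partner strand of 1 hairpin fared against each other, the 3p and 5p counts were set against each other within each library, which does not depend on scaling. Trapping shifted both hairpins toward the 3p arm. The miR-221 ratio of 3p to 5p counts was 5.16, 2.84 and 2.65 in the input, 14.6, 7.63 and 9.45 in the MS2 control and 9.08, 7.28 and 6.68 with the PD-L1 3'UTR. The miR-222 ratio was 77.9, 33.1 and 24.7 in the input, 128, 87.7 and 85.1 in the MS2 control and 191, 134 and 106 with the PD-L1 3'UTR. In both hairpins every trapped library had a higher ratio than every input library, and the trapped groups overlapped. The share of all hairpins whose ratios were likewise without overlap was not counted.

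The changes were tested by edgeR's quasi-likelihood test in a fit of both arms over the 101 hairpins with both arms tested. From the input to the MS2 control the ratio rose 3.01-fold for miR-221 (log2 change of 1.59 ± 0.31, SE, adjusted p of 0.000138) and 2.47-fold for miR-222 (1.30 ± 0.36, adjusted p of 0.00368). From the input to the PD-L1 3'UTR it rose 2.25-fold for miR-221 (1.17 ± 0.31, adjusted p of 0.00213) and 3.51-fold for miR-222 (1.81 ± 0.37, adjusted p of 0.000157). Without PD-L1 3'UTR replicate 1 these rises were 1.04 and 1.58 in log2 units, and both passed the threshold. Such shifts were common, since 71.3% of hairpins changed from the input to the MS2 control, 37.6% toward the 3p arm, and 64.4% changed from the input to the PD-L1 3'UTR, 29.7% toward the 3p arm. Between the trapped groups, where 71.3% of hairpins changed and 34.7% did so toward the 3p arm, neither hairpin passed the threshold. There miR-221 had a log2 change of -0.42 (95% interval from -1.06 to 0.23, adjusted p of 0.226) and miR-222 of 0.51 (from -0.25 to 1.26, adjusted p of 0.211), or -0.54 and 0.28 without PD-L1 3'UTR replicate 1.

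In miR-21, whose guide is the 5p arm and was the most abundant miRNA of the lysate, a shift toward the 3p arm favours the partner strand. The ratio of miR-21-5p to miR-21-3p had a geometric mean of 2202 in the input, 1444 in the MS2 control and 460 with the PD-L1 3'UTR, so its partner strand gained on its guide. The log2 change of its 3p:5p ratio was 0.61 ± 0.25 (SE, adjusted p of 0.0339) from the input to the MS2 control and 1.65 ± 0.25 (adjusted p of 6.87e-06) from there to the PD-L1 3'UTR. The difference between miR-21 and the cluster was not itself tested. Over the 101 hairpins, the arm that dominated in the input gained in 27 of those called from the input to the MS2 control and lost in 45, and miR-221 and miR-222 were among the 27.

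The 3p arms share a seed and a transcript, and their ratio within a library shows how their retention diverged. The ratio of miR-222-3p to miR-221-3p was 0.659, 0.674 and 0.720 in the input, 0.811, 1.26 and 0.941 in the MS2 control and 2.92, 2.51 and 1.81 with the PD-L1 3'UTR. Thus miR-221-3p was the more abundant in every input library and miR-222-3p in every PD-L1 3'UTR library, and no groups overlapped. The share of other miRNA pairs whose ratios were likewise without overlap, or would be called, was not counted. Of single miRNAs, 65.7% were without overlap between the trapped groups. The geometric mean rose 2.40-fold from the MS2 control to the PD-L1 3'UTR and 3.47-fold from the input to the PD-L1 3'UTR. In a two-sided exact permutation test each of the 3 pairs of groups gave p = 0.1, adjusted p = 0.1, which is the smallest that 3 against 3 libraries allow and cannot pass the threshold. As an additional feature of the edgeR ratio fit, a test chosen after the data were examined, the log2 differences were 1.26 ± 0.27 (SE, adjusted p of 0.000187 over 103 features) against the MS2 control and 1.79 ± 0.27 (adjusted p of 3.31e-06) against the input. For the MS2 control against the input it gave 0.53 ± 0.26 (adjusted p of 0.0763). Without PD-L1 3'UTR replicate 1, the differences in mean log2 ratio were 1.11 against the MS2 control and 1.64 against the input. The edgeR fit of this ratio was not repeated without that library.

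The 5p arms moved in the same direction. The ratio of miR-222-5p to miR-221-5p was 0.0436, 0.0577 and 0.0775 in the input, 0.0928, 0.110 and 0.104 in the MS2 control and 0.139, 0.137 and 0.114 with the PD-L1 3'UTR, again with no overlap of the groups. The exact permutation test gave p = 0.1 for each pair. In the edgeR ratio fit, chosen after the data were examined, the log2 difference was 0.82 ± 0.29 (SE, adjusted p of 0.0168) from the input to the MS2 control, 1.16 ± 0.29 (adjusted p of 0.00130) from the input to the PD-L1 3'UTR and 0.34 ± 0.29 (adjusted p of 0.297) between the trapped groups. Without PD-L1 3'UTR replicate 1, the differences in mean log2 ratio were 1.11 against the input and 0.29 between the trapped groups. As for the 3p arms, the share of other miRNA pairs that diverged alike was not counted. Whether the 3p and 5p ratios moved by different amounts was not tested.

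**Figure D3:**
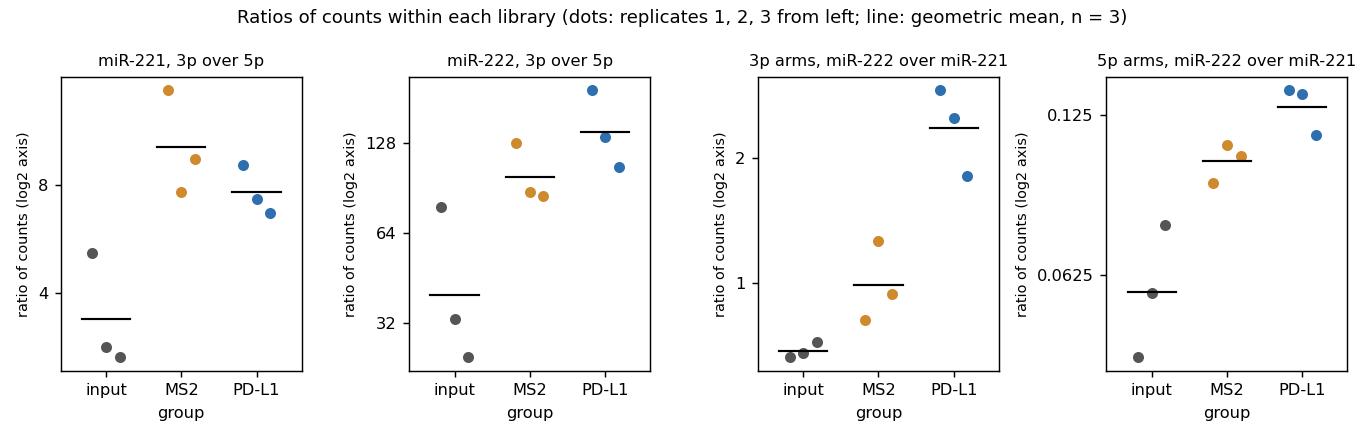
Ratios of counts within each library on log2 axes, with dots for the libraries and a line for the geometric mean (n = 3). Both 3p:5p ratios were lowest in the input, and the ratio of miR-222-3p to miR-221-3p rose from a geometric mean of 0.684 in the input to 0.987 in the MS2 control and 2.37 with the PD-L1 3'UTR.

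Whether the PD-L1 3'UTR holds matches to these seeds was examined in the longest 3'UTR that GENCODE annotates for CD274, which encodes PD-L1. It lies in exon 6, is 2704 bases long and occupies chr9:5467863-5470566 of GRCh37, forward strand. The extent of the bait within it was not analysed here. The match to bases 2 to 8 of the seed of the 3p arms, ATGTAGC, was found 0 times on the mRNA strand, as were the match to bases 2 to 7 followed by A, TGTAGCA, and the match of 6 bases that both contain, TGTAGC. In windows of the same length from the 3'UTRs of 4559 other genes, these letters were present in 13.2%, 18.2% and 43.8%. For miR-222-5p, the match CTACTGA was also found 0 times and was present in 14.8% of the windows. The same held for its match TACTGAA, at 23.3% of windows, and for the shorter TACTGA that both contain, at 49.9%. The absence says only that these letters are not in this window.

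Finally, each arm was set beside the other tested miRNAs to find those with the most similar course over the 9 libraries, measured as the root mean square difference of log2 CPM after centring each miRNA on its mean. These are descriptions of 9 libraries in 3 groups. For miR-221-3p the nearest were miR-92b-3p (0.22, Pearson's r of 0.97), miR-378d (0.27) and miR-362-5p (0.28). miR-92b-3p went from 2683 CPM in the input to 960 in the MS2 control and 1070 with the PD-L1 3'UTR. For miR-222-3p the nearest were miR-199a-3p (0.23, Pearson's r of 0.93), miR-199b-3p (0.24) and miR-194-5p (0.25). miR-199a-3p had 6105, 3367 and 6636 CPM in the input, the MS2 control and the PD-L1 3'UTR group, the same low point in the MS2 control as miR-222-3p. It has the same mature sequence as miR-199b-3p, so reads cannot be divided between them.

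For the 5p arms, the nearest to miR-221-5p were miR-103a-3p (0.34), miR-505-3p (0.34) and miR-10a-5p (0.48), and the nearest to miR-222-5p were let-7f-1-3p (0.35), miR-181a-3p (0.39) and let-7b-3p (0.41). Within the cluster the 5p arms were the closest pair, at 0.53, and miR-222-5p ranked 6 among all miRNAs in likeness to miR-221-5p. The 3p arms were further apart, at 0.79, and miR-222-3p ranked 84 in likeness to miR-221-3p.

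**Figure D4:**
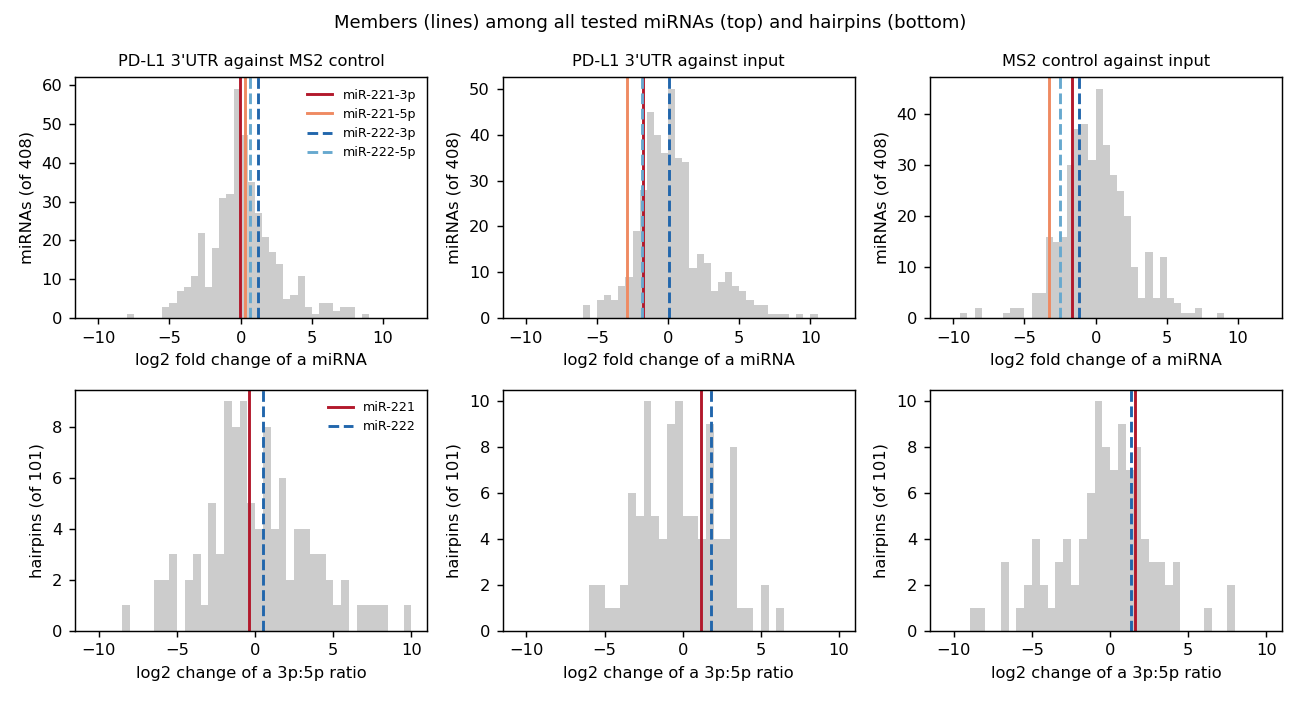
Histograms of the log2 fold changes of all 408 tested miRNAs (top) and of the log2 changes of the 3p:5p ratio of 101 hairpins (bottom) in the 3 comparisons, with lines for the members. In the comparison with the MS2 control the lines of the 4 arms lie between -0.07 and 1.22, with 26.5% of the tested miRNAs above the highest, and in the MS2 control against the input all lie below 0, the lowest at -3.25.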

How the data were processed

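The study sequenced small RNA of ES-2 extract and miTRAP eluates in 9 libraries. The deposited values are raw counts for each locus of a mature miRNA. The submitters' processing notes name cutadapt 1.18, Bowtie2 2.2.6, featureCounts 1.6.3 and hg38, and the study's methods give miRBase as the annotation the authors counted on. Sample titles gave groups and replicate numbers.

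Counts were summed over the loci of a name. Tests used edgeR 4.0.16 in R 4.3.3: filterByExpr, TMM factors, 3 group means over all 9 libraries, glmQLFit and glmQLFTest, two-sided, Benjamini-Hochberg adjustment over 408 miRNAs, threshold 0.05. The standard error is the log2 fold change divided by the square root of F. For 3p:5p ratios both arms of a hairpin entered as columns with a term for each library. Ratios between hairpins were tested by exact permutation. Alternatives used limma 3.58.1 and DESeq2 1.42.0. Log2 CPM for likeness used a prior count of 2. Both edgeR procedures were run on simulated data with changes set in the PD-L1 3'UTR group only. That setting is simpler than these data, and no conclusion is drawn from it. Named miRNAs are the 4 arms, the 3 nearest to each, miR-21 and the largest changes among X chromosome miRNAs. Members, lists and tests were chosen with earlier results of these data known. Replicates were compared by chi-square statistics on counts, and none agreed within sampling noise (lowest statistic 12.5 per degree of freedom). Sequences are from RefSeq and GENCODE.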

Additional observations from a re-analysis of the deposited data

How the results depend on the processing

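Over 28 results and 397 values under alternatives, 378 kept their direction and their side of the threshold or, for counts of arms, stayed within 1.5 times. Exact tests of the ratios between hairpins are among these values. They could not pass the threshold with so few libraries, so only their direction was free to change. The alternatives were library totals, size factors of DESeq2, DESeq2 itself, no filter or a minimum mean of 10 CPM, only the groups compared, the replicate block, separate loci, other tests and pseudocounts for the ratios, and leaving out each library. The log2 fold change of miR-222-3p with the PD-L1 3'UTR against the input stood near 0 and changed sign, to -0.18 with no filter and -0.021 with only the 2 groups compared. Over fits that each left out 1 library it ranged from -0.11 to 0.18, below 0 without input replicate 2 (-0.093) or 3 (-0.11), MS2 control replicate 1 (-0.012) or 3 (-0.11) or PD-L1 3'UTR replicate 1 (-0.080) or 2 (-0.10). With library totals it was 0.66 and passed the threshold, so that 4 arms in place of 3 were called against the input and 1 arm in place of 0 was higher than both other groups. Against the MS2 control, miR-222-5p passed the threshold at 0.65 with no filter, where 2 arms in place of 1 were called. With the replicate block miR-221-5p at 0.35 and miR-222-5p at 0.71 passed it, giving 3 arms called. In the main fit 60% of the 408 miRNAs were called in that comparison, and the shares in these 2 alternatives were not counted. Deviations from the group means correlated at -0.18 to 0.13 between libraries with the same number, with 1 of 9 pairs above 0.1. By this measure, 0 of 9 libraries were closest to their own number in both other groups. Between the MS2 control and the PD-L1 3'UTR alone, same-number correlations were 0.13, 0.067 and 0.099, and the others ran from -0.12 to 0.026. With 3 libraries in a group, these values cannot settle whether the number pairs them. The replicate block changed no other call. In the edgeR ratio fit, added after the data were examined, the ratio of miR-222 to miR-221 passed the threshold for the 3p arms at 1.26 against the MS2 control and 1.79 against the input, and for the 5p arms at 1.16 with the PD-L1 3'UTR and 0.82 with the MS2 control, both against the input. The exact test could not. The cause of these differences was not tested, except that 3 against 3 libraries limit the exact test.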

Other observations

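The other miRNAs of chromosome X, which share only their chromosome with the cluster, were counted for comparison. Of 163 names, 42 were tested. Against the input, 28 of the 42 were lower and 4 were higher in the MS2 control, with a median log2 fold change of -1.43, where 37% and 32.8% of all 408 miRNAs were lower and higher. With the PD-L1 3'UTR, 22 were higher and 8 lower than the MS2 control (median 0.77), where 31.4% and 28.7% of all were. In that group 12 were higher and 17 lower than the input (median -0.90), where 34.1% and 32.4% of all were. Many belong to clusters that share a transcript, so they are not independent. These counts and medians were not repeated without PD-L1 3'UTR replicate 1.

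Among these 42 miRNAs of chromosome X, the largest rises between the trapped groups by fitted fold change were those of miR-652-5p and miR-18b-5p, both with 0 counts in every MS2 control library and at most 16 and 15 counts with the PD-L1 3'UTR. The largest falls among the 42 were those of miR-505-5p, from at most 209 counts in the MS2 control to at most 1, and of miR-361-3p, with a log2 fold change of -2.89 ± 0.32 (SE, edgeR adjusted p of 1.90e-05). Against the input, the PD-L1 3'UTR group held more miR-106a-5p (5.14 ± 0.20, adjusted p of 1.47e-08) and miR-374a-3p (4.79 ± 0.31, adjusted p of 4.16e-07) and less miR-361-3p (-4.59 ± 0.34, adjusted p of 1.13e-06) and miR-505-5p, which had at most 27 counts in the input. In the MS2 control against the input, the largest rises among the 42 were those of miR-1468-5p, with at most 3 input counts against at most 49, and of miR-505-5p (3.58 ± 0.33, adjusted p of 6.88e-06). The largest falls there, again among the 42, were those of miR-652-5p, with at most 197 input counts, and of miR-500a-5p, with at most 59 input counts against at most 1.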
